A study of Homo sapiens with 20 samples.

Results

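These data describe 63 genes that were more abundant both in senescent cells 7 days post-IR and in non-irradiated cells with a knockdown of NFKBIA, while they stayed near their untreated level 1.5 h post-IR. The genes were chosen by their own values in these libraries. For each gene the median CPM (a gene's count divided by the library's total of gene counts and multiplied by 1000000) was taken over the 5 libraries of a group, 0.5 was added, and the log2 was compared with the same value in the untreated group. This difference is called the rise. A gene was taken when its untreated median CPM was at least 1, its rises at 7 days and in the knockdown were both 0.8 or more, and its difference at 1.5 h lay between -0.6 and 0.6. The deposited counts cover 20314 genes, of which 13367 had an untreated median CPM of at least 1, and 63 of these met all limits. The limit at 7 days alone was passed by 825 genes and that in the knockdown by 160, and 68 passed both before the limit at 1.5 h was applied. Because the selection used the comparisons with untreated cells, the values against untreated cells are a description and carry no test.

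NF-κB is a family of dimeric transcription factors held in the cytoplasm by inhibitors, of which IκBα, the product of NFKBIA, is resynthesised on activation and ends the response. DNA damage activates NF-κB through ATM and the IKK complex, and in senescent cells the factor drives much of the senescence-associated secretory phenotype (SASP), a mixture of cytokines, growth factors, proteases and protease inhibitors. Loss of IκBα removes one of the brakes without a damage signal.

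The cells are U2-OS, derived from a human bone tumour (osteosarcoma), and 4 conditions were profiled by RNA-seq with 5 libraries apiece. These were untreated cells, cells 1.5 h (90 min) post-IR as the first phase, cells 7 days post-IR as the second phase, both irradiated with 20 Gy, and cells without irradiation in which NFKBIA was knocked down by an shRNA. All cells were grown in DMEM with fetal calf serum. According to the methods, knockdown lines were made by lentiviral transduction, clonally selected with puromycin and treated with doxycycline daily for several days, and the sequenced knockdown used a doxycycline-inducible shRNA. The methods describe scrambled shRNA controls, but no library carries such a label, and the labels name no vector or doxycycline for the untreated group, so that loss of NFKBIA, clonal selection and doxycycline cannot be told apart here.

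Libraries held 22535659 to 40390961 counts on genes. NFKBIA itself was at 30.5 ± 6.23 CPM in untreated cells, 81.6 ± 5.14 at 1.5 h, 31.0 ± 1.65 at 7 days and 12.4 ± 0.683 in the knockdown (SD, n = 5), a log2 fold change of -1.36 (SE 0.11, edgeR adjusted p = 4.87e-09) between knockdown and untreated cells. The mesenchymal genes VIM, COL1A1, SPARC, RUNX2 and ALPL were detected in every library, whereas COL1A2 stayed below 1 CPM. Their levels differed between groups, with COL1A1 at 588 to 668 CPM in the knockdown against 1700.02 to 2216 in untreated cells, and ALPL at 5.89 to 7.6 against 18.1 to 45.2. Epithelial markers, mainly KRT8 and KRT18, summed to 586 to 1087 CPM over all libraries. Untreated replicate 5, the shallowest library, was the lowest of its group in 45.1% of the 13367 expressed genes and in 36.5% of the 63 genes. Untreated replicate 2 was the highest of its group in 50.8% of the 63 genes against 21.5% of expressed genes, and replicate 3 of the 1.5 h group in 52.4% against 25.7%. Without untreated replicate 2 the rule found 71 genes, 59 of them among the 63, and without untreated replicate 5 it found 66 with 58 shared. Each untreated library was sequenced on lane 2 or 3, each 7 days library on lane 4 or 5 and each knockdown library on lane 5 or 6, so that no lane held untreated libraries together with 7 days or knockdown libraries. A fit with the lane as a factor links these groups only through lanes shared with other groups. In that fit the gene lists described at the end held 161 genes higher and 44 lower at 7 days and 75 higher and 36 lower in the knockdown, against 174, 35, 76 and 23 without it. Lane 4 held replicates 4 and 5 of the 1.5 h group and replicates 1 and 2 of the 7 days group, and there both 7 days libraries exceeded both 1.5 h libraries in 63 of the 63 genes, with a median difference in log2(CPM + 0.5) of 1.44. Among all 14992 genes tested 44.4% did so. The rule used these libraries and its limits at 7 days and 1.5 h nearly fix this order, so the count is a description and the part of the lane was not tested.

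Most of the 63 genes were weakly expressed before treatment. Their untreated medians ran from 1.03 to 826 CPM with a median of 3.69 CPM, against 35.4 CPM for all expressed genes, and 38 of them lay below 5 CPM. The median rise was 1.59 at 7 days (0.81 to 3.32) and 1.05 in the knockdown (0.81 to 3.27), and the difference at 1.5 h had a median of 0.03. Both rises were at least 1 in 33 genes and at least 1.5 in 6 genes, and the 7 days rise was the larger one in 51 genes. At 7 days all 5 libraries lay above all untreated libraries in 61 genes, where 27.3% of all genes tested did so, and in the knockdown this held for 57 genes, where 16.2% did so. Since the rule used the same libraries, these counts only describe the choice. The exceptions were ANK2 and PAPPA2, which overlapped with the untreated group on both sides, and DHRS3, FAXDC2, PSG9 and CHI3L1, which overlapped in the knockdown. Replicates spread most among untreated cells, where the SD of log2(CPM + 0.5) had a median of 0.25 over the 63 genes, against 0.13 in the knockdown and 0.12 at 7 days.

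**Figure D1:**
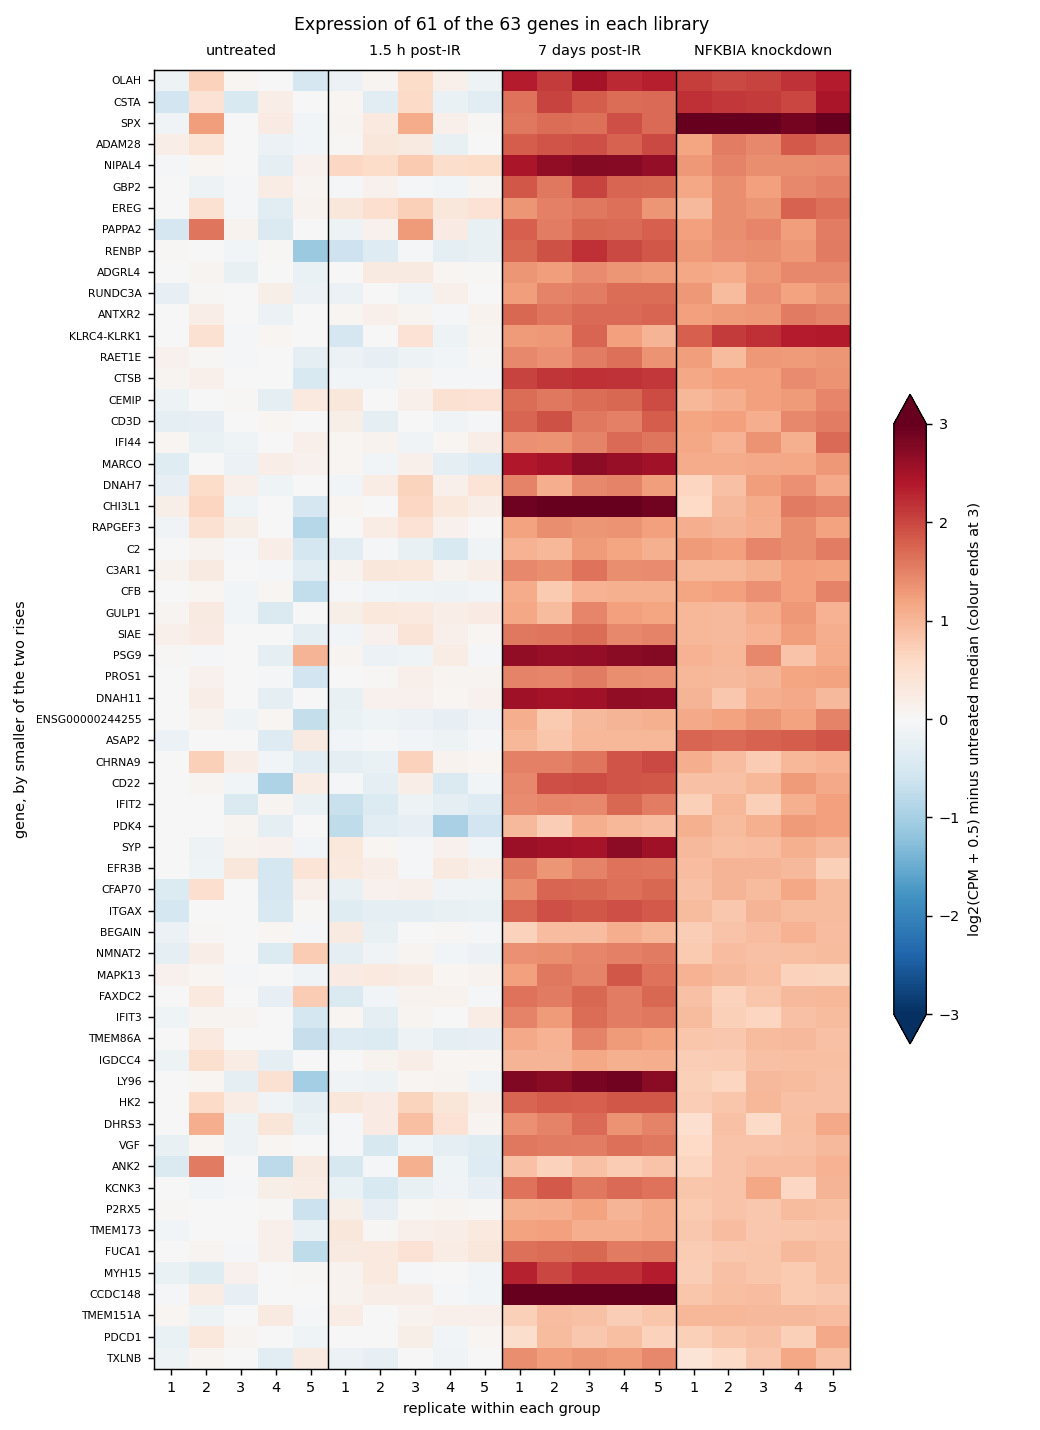
Heat map of 61 of the 63 genes (rows, ordered by the smaller of their rises) in the 20 libraries (columns, by group and replicate). Colour is log2(CPM + 0.5) minus the untreated median of the gene, with the scale ending at 3. The 7 days and knockdown columns are red throughout, while PAPPA2, ANK2, SPX and DHRS3 are also red in untreated replicate 2 and in 1.5 h replicate 3.

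Genes close to a limit differed little from those just past it. At 7 days PDCD1 (0.81) and TMEM151A (0.82) were just inside, and MLLT3 (0.78) and NAT16 (0.74) just outside. In the knockdown TXLNB (0.81) and CCDC148 (0.82) were inside, and APOL1 and CACNA2D4 (both 0.80 after rounding) fell short. CHRNA9 and KLRC4-KLRK1 had untreated medians of 1.03 CPM, while the complement protease gene CFI and PAEP, both at 0.937 CPM, were left out. PDK4 (-0.57) and NIPAL4 (0.56) were the genes just inside the limit at 1.5 h, and PAQR3 (0.63) and KLHDC7A (0.82) were just outside. The 5 genes that this limit removed were GADD45A, GDF15, PVRL4, PAQR3 and KLHDC7A, of which GADD45A and GDF15 are p53 targets with differences of 1.25 and 2.10 at 1.5 h.

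**Figure D2:**
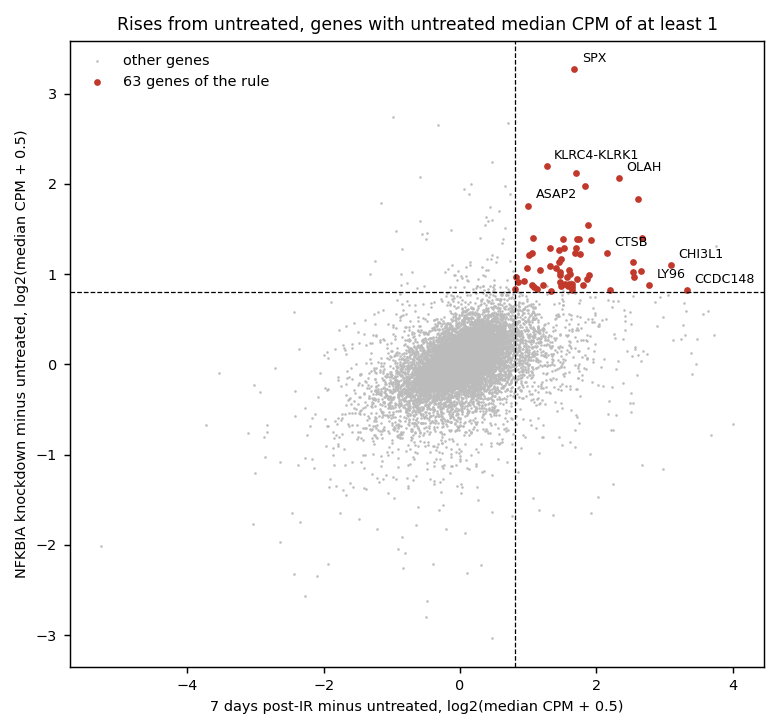
Rise at 7 days post-IR (x axis) against rise in the NFKBIA knockdown (y axis), both as differences in log2(median CPM + 0.5) from untreated cells, for the 13367 genes with an untreated median of at least 1 CPM. Dashed lines mark the limits of 0.8, red points are the 63 genes, and SPX stands out by its knockdown rise and CCDC148 by its 7 days rise.

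Promoter sequences were looked up to show what lies upstream of genes that changed together. The RefSeq table (GRCh38.p14, 250 bases before to 50 after the start) held 47 of the 63 genes. The NF-κB consensus was present on either strand in 8.51% of the 47, against 12.8% of 10422 promoters of expressed genes and 11.3% of all 35116 promoters, and the next shares are given against the same backgrounds in this order. TATAAA, the core of the TATA box, occurred in 19.1% against 5.51% and 11.5%, TGANTCA, the AP-1 site, in 8.51% against 4.59% and 7.71%, and the core of the interferon-stimulated response element (ISRE, a pair of GAAA repeats apart by any 2 bases) in 6.38% against 2.61% and 3.57%. The CLEAR element TCACGTGA of lysosomal genes, which contains the E-box CACGTG, was found in 0 of 47 against 1.93% and 0.98%, and the E-box in 12.8% against 10.1% and 7.26%. A match is a string of letters and not a measured binding site. The 4 upstream sequences below were selected as examples that hold one or more of these motifs, which also occur in other genes of the 63 (the NF-κB consensus in ANK2 and PDCD1, the AP-1 site in ADGRL4, CD3D and SYP, and the ISRE core in IFI44). They are printed 5′ to 3′ on the strand of the gene, with matches to the NF-κB consensus, ISRE core, AP-1 site and TATAAA in capitals.
CFB, chr6:31945845-31946094, plus strand: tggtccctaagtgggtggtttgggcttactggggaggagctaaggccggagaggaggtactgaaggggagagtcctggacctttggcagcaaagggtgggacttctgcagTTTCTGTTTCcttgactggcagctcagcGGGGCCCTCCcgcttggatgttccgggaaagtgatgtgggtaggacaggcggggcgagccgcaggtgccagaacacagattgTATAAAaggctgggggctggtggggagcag
IFIT3, chr10:89327747-89327996, plus strand: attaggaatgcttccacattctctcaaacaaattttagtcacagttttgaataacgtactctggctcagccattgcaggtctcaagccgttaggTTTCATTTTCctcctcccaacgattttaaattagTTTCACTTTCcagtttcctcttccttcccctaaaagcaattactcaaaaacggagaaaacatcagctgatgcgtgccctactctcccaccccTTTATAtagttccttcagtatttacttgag
NIPAL4, chr5:157459963-157460212, plus strand: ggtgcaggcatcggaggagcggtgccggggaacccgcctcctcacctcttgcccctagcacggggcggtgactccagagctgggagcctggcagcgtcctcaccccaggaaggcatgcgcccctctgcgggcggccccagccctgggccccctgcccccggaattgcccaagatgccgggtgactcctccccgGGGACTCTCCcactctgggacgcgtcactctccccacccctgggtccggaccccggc
C3AR1, chr12:8066360-8066609, minus strand: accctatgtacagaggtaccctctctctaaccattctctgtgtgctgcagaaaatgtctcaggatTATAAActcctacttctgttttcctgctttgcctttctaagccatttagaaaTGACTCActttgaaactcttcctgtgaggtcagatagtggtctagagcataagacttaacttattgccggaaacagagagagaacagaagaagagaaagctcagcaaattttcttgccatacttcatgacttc
In CFB the capitals are, in order, an ISRE core on the opposite strand that begins at position -140 from the start, the NF-κB match at -112 and the TATA box at -30. IFIT3 holds ISRE cores at -156 and -122 and a TATA box at -30, all 3 on the opposite strand. NIPAL4 has a single NF-κB match at -57, and C3AR1 a TATAAA at -185 and an AP-1 site at -133.

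The rule never set senescent cells against the knockdown, so this comparison was tested in the fit over all genes. It sets the level in the non-irradiated knockdown cells against that in senescence. By the quasi-likelihood test of edgeR, adjusted after Benjamini and Hochberg (adjusted p under 0.05 and log2 fold change above 0.5 in size), 30 of the 63 genes (47.6%) were higher at 7 days than in the knockdown, where 15.8% of the 14992 genes tested were, 3 (4.76%) were lower, where 9.89% were, and 30 were not called. The median log2 fold change between 7 days and knockdown was 0.47 over the 63 genes and 0.00 over all genes tested, with a range from -1.60 to 2.57. Because many more genes passed the limit at 7 days than in the knockdown, the excess of higher calls is in part a property of the rule and is given as a description. All 5 libraries at 7 days lay above all 5 knockdown libraries in 40 of the 63 genes (29.4% of all genes tested) and below them in 6 (31.6%). Knockdown replicate 1, the knockdown library on lane 5, was the lowest of its group in 49.2% of the 63 genes, against 22.7% of expressed genes. Knockdown replicates 4 and 5 were the highest in 34.9% and 39.7%, against 29.3% and 21.5% of expressed genes. With the 4 libraries of lane 5 alone, replicates 3 to 5 at 7 days and replicate 1 of the knockdown, the median log2 fold change was 0.67, a value that rests on a single knockdown library, and with the lane as a factor in the fit over all libraries it was 0.68. With the lane as a factor ADAM28, DNAH7, TMEM86A and GBP2 were called higher at 7 days (log2 fold changes 0.75, 0.86, 0.51 and 0.71), and CHRNA9 lost its call (0.84, edgeR adjusted p = 0.0556).

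**Figure D3:**
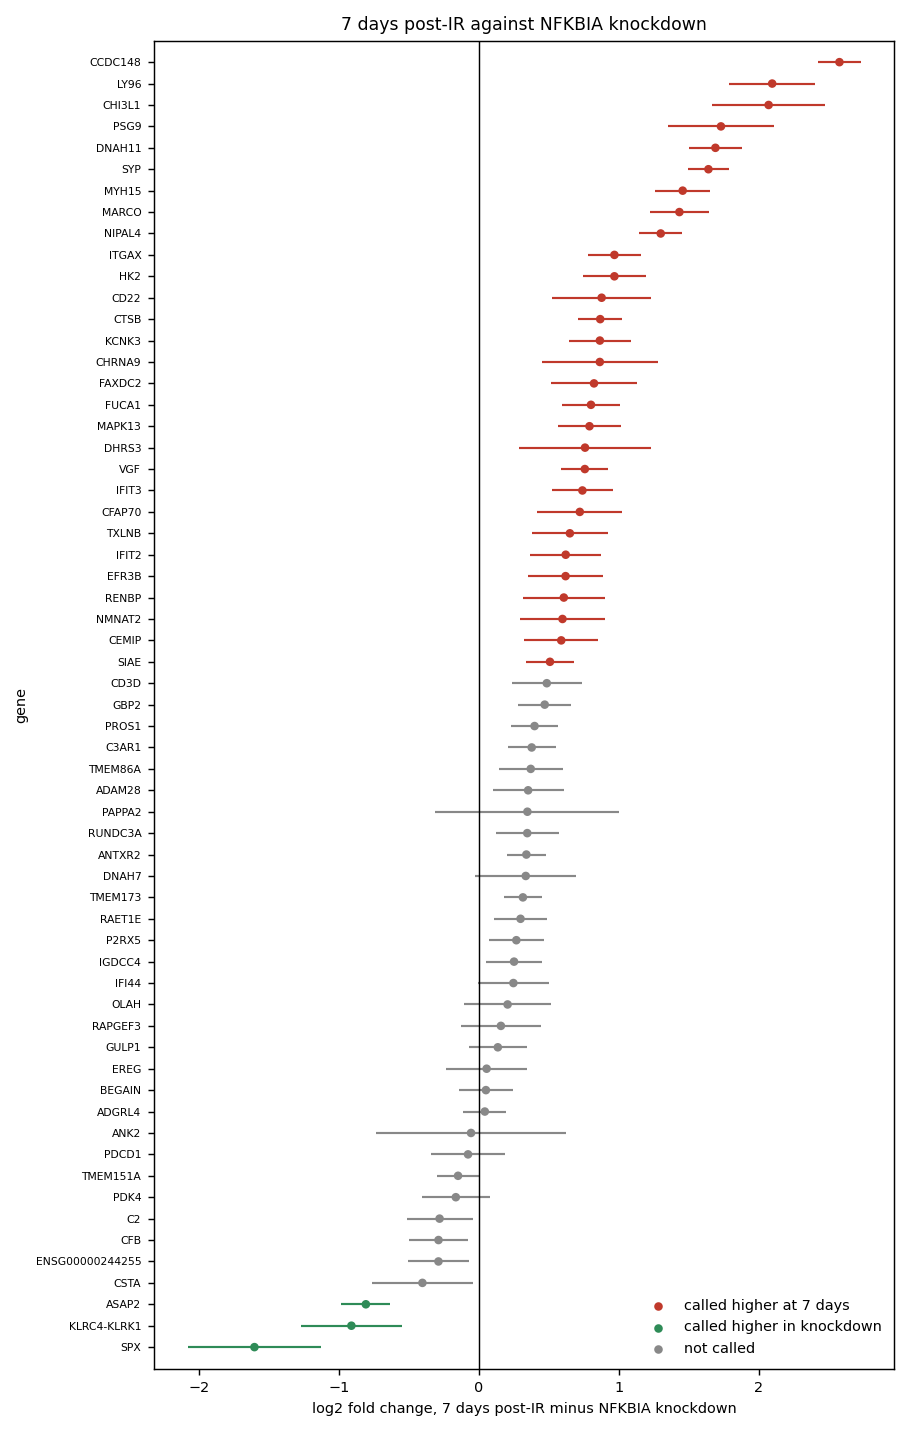
Log2 fold change between 7 days post-IR and NFKBIA knockdown for 61 of the 63 genes (points) with 95% intervals from the edgeR fit (lines). Red genes were called higher at 7 days (29 of those drawn), green ones higher in the knockdown (3), and grey ones were not called (29).

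Of 6 complement and coagulation genes 1 was called higher at 7 days than in the knockdown, a share near the 15.8% of all genes tested, and CFB, C2, ENSG00000244255, C3AR1 and PROS1, described here, were not called. Complement is a cascade of plasma proteases and their regulators in which C2 and CFB form the catalytic part of the C3 convertases, and C3AR1 is the receptor for the fragment C3a. CFB was at 3.49, 3.64, 3.27, 3.68 and 1.91 CPM in untreated cells, 8.19, 6.4, 7.67, 7.79 and 7.8 at 7 days and 8.55, 8.8, 9.76, 8.88 and 10.8 in the knockdown. Here the knockdown libraries were the highest, but the difference stayed under the fold limit (log2 fold change -0.29, 95% interval -0.50 to -0.08). C2 followed CFB with 3.89, 3.75, 4.72, 4.34 and 3.99 CPM at 7 days and 4.69, 4.52, 5.37, 5.13 and 5.75 in the knockdown, against 1.64, 1.79, 1.56, 1.97 and 0.976 in untreated cells (log2 fold change -0.28, 95% interval -0.52 to -0.05). Its neighbour ENSG00000244255, named AL645922.1 in GENCODE 29, spans C2 and CFB and had 0.871 to 1.02 times the counts of CFB in each library, so that these 3 of the 63 genes share reads and are not independent. C3AR1 was at 9.2, 10.4, 8.44, 8.08 and 6.52 CPM in untreated cells, 23.8, 22.8, 27.1, 22.8 and 23.3 at 7 days and 17.5, 17.3, 18.2, 20.4 and 19.99 in the knockdown, without overlap between any of the 3 groups (log2 fold change 0.38, 95% interval 0.20 to 0.55, not called). PROS1, which encodes the anticoagulant protein S that also binds a complement regulator, was the most abundant of the group, with 36.3 ± 6.24 CPM in untreated cells, 106 ± 5.88 at 7 days and 81.4 ± 6.48 in the knockdown (SD, n = 5).

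Interferon-stimulated genes and sensors of innate immunity formed a second group of 6. IFIT2 and IFIT3, whose products bind viral RNA and its sensors, lie next to each other on chromosome 10. IFIT3 was at 4.36, 5.13, 5.1, 4.82 and 3.19 CPM in untreated cells, 5.01, 3.93, 5.11, 4.86 and 5.72 at 1.5 h, 14.5, 12.3, 16.6, 15 and 15.4 at 7 days and 9.74, 8.18, 7.75, 9.33 and 9.69 in the knockdown, and was called higher at 7 days (log2 fold change 0.74, 95% interval 0.52 to 0.96, edgeR adjusted p = 3.89e-06). IFIT2 behaved in the same way (log2 fold change 0.62, 95% interval 0.37 to 0.87, edgeR adjusted p = 0.000177). GBP2, an interferon-inducible GTPase, reached 22.2, 18.3, 25.3, 20.6 and 20.4 CPM at 7 days and 13.6, 16, 14.2, 16.7 and 17.6 in the knockdown from 5.8, 5.13, 5.52, 6.82 and 6.12 in untreated cells. All its 7 days libraries lay above the knockdown, yet the log2 fold change of 0.47 remained under the limit of 0.5. IFI44 did not pass the test (log2 fold change 0.25, 95% interval -0.01 to 0.50), with 6.42 ± 0.724 CPM at 7 days and 5.47 ± 1.203 in the knockdown against 1.91 ± 0.238 in untreated cells. TMEM173, the gene of the DNA sensor adaptor STING, was at 6.65, 7.07, 7.03, 7.89 and 6.08 CPM in untreated cells, 16.9, 17.1, 15.4, 15.4 and 15.9 at 7 days and 12.8, 13.9, 12.8, 13 and 13.2 in the knockdown. LY96 encodes MD-2, which presents lipopolysaccharide to TLR4. It showed the second largest difference between the states, with 2.23, 2.32, 1.76, 3.23 and 0.843 CPM in untreated cells, 18.2, 17.4, 19.3, 19.9 and 17.4 at 7 days and only 3.94, 3.78, 4.82, 4.76 and 4.52 in the knockdown (log2 fold change 2.09, 95% interval 1.79 to 2.4, edgeR adjusted p = 1.21e-10).

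Several receptors best known from lymphocytes and myeloid cells were among the 63 genes. The 5 leukocyte markers together summed to 1.46 to 2.22 CPM at 7 days and 0.253 to 0.58 in the knockdown, against 0.908 to 2.09 in untreated cells. Among them PTPRC, the pan-leukocyte antigen CD45, was at 1.11 to 1.66 CPM at 7 days, 0.181 to 0.549 in the knockdown and 0.808 to 1.51 in untreated cells. The monocyte marker CD14 was at 0.204 to 0.472 CPM at 7 days, above the 0 to 0.193 of untreated cells, and at 0.0305 to 0.112 in the knockdown. The part of such cells in the values of these genes was not tested. CD3D, a subunit of the T cell receptor complex, was at 0.849, 0.883, 1.14, 1.2 and 1.15 CPM in untreated cells, 5.03, 5.67, 4.43, 4.16 and 5.23 at 7 days and 3.23, 3.32, 2.99, 3.97 and 4.23 in the knockdown, while its partner CD3E had at most 0.0308 CPM in any library except untreated replicate 5, where it was at 0.532. The difference in CD3D was just under the limit (0.48) and passed it without 7 days replicate 3 (0.50) or 4 (0.52) and without knockdown replicate 4 (0.51) or 5 (0.54). PDCD1, the inhibitory receptor PD-1, stayed between 1.90 and 3.14 CPM in both raised groups (log2 fold change -0.08, 95% interval -0.34 to 0.18). CD22, an inhibitory sialic acid-binding lectin of B cells, was called higher at 7 days (5.76, 8.33, 8.54, 8.13 and 7.91 CPM) than in the knockdown (3.74, 3.78, 4.12, 5.09 and 4.59), from 1.82, 1.96, 1.68, 0.711 and 2.22 in untreated cells (log2 fold change 0.88, 95% interval 0.52 to 1.23, edgeR adjusted p = 0.000149). The integrin gene ITGAX and the scavenger receptor gene MARCO were also called higher at 7 days, MARCO with 35.2, 36.9, 42.5, 40.7 and 38.3 CPM against 14, 13.9, 14.2, 14.4 and 15.9 in the knockdown and 4.75, 6.21, 5.42, 7.21 and 6.83 in untreated cells (log2 fold change 1.43, 95% interval 1.22 to 1.64, edgeR adjusted p = 1.26e-10). For ITGAX the means were 5.97 ± 1.19, 26.0 ± 1.51 and 13.4 ± 0.716 CPM in untreated cells, at 7 days and in the knockdown (SD, n = 5).

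A ligand of a killer cell receptor and a readthrough gene over that receptor were among the 63. RAET1E encodes a stress ligand of the receptor NKG2D and was at 2.02, 1.85, 1.76, 1.81 and 1.42 CPM in untreated cells, 5.82, 5.51, 6.21, 6.77 and 5.37 at 7 days and 4.99, 3.94, 5.19, 5.06 and 5.28 in the knockdown (log2 fold change 0.30, 95% interval 0.11 to 0.49, not called). KLRC4-KLRK1 is a readthrough gene over KLRC4 and KLRK1, the latter being the NKG2D gene, and the KLRK1 entry held 0.60 to 0.957 times its counts, so that the transcripts cannot be separated. It was at 1.03, 1.6, 0.966, 1.1 and 1.02 CPM in untreated cells, 3.19, 3.28, 4.63, 3.08 and 2.58 at 7 days and 4.78, 6.06, 6.5, 7.34 and 7.41 in the knockdown. Knockdown libraries were all above those at 7 days, and the gene was called lower at 7 days (log2 fold change -0.91, 95% interval -1.27 to -0.55, edgeR adjusted p = 0.00012). With the lane as a factor the log2 fold change was -0.46 and the call was lost (edgeR adjusted p = 0.226).

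Secreted factors showed the widest range between the states. EREG, the growth factor epiregulin and a SASP factor, was at 3.25, 4.64, 3.12, 2.52 and 3.51 CPM in untreated cells, 4.25, 4.79, 5.64, 4.25 and 4.57 at 1.5 h. At 7 days it was at 8.95, 10.2, 10.7, 11.2 and 8.89 CPM, and at 6.9, 9.32, 8.94, 12.3 and 11.2 in the knockdown. Its raised groups overlapped (log2 fold change 0.05, 95% interval -0.23 to 0.34). SPX, the gene of the peptide hormone spexin, was the member with the strongest excess in the knockdown. It was at 1.38, 4.39, 1.53, 1.91 and 1.42 CPM in untreated cells, 1.64, 2.01, 3.9, 1.78 and 1.6 at 1.5 h. Senescent libraries had 5.62, 6.01, 5.89, 7.3 and 6.13 CPM and knockdown libraries 19.2, 17.4, 22, 14.3 and 21.9, 3.04-fold higher in the knockdown than at 7 days (log2 fold change -1.60, 95% interval -2.08 to -1.13, edgeR adjusted p = 4.19e-06). One untreated and one 1.5 h library, replicates 2 and 3, stood above the rest of their groups. CHI3L1, a chitinase-like glycoprotein of inflamed tissue, went the other way, with 4.07, 5.8, 3.19, 3.52 and 2.35 CPM in untreated cells, 29.96, 34, 49.6, 35.2 and 29.6 at 7 days and 5.62, 7.35, 8.15, 11.3 and 10.8 in the knockdown (log2 fold change 2.07, 95% interval 1.67 to 2.47, edgeR adjusted p = 9.66e-09). PSG9, a pregnancy-specific glycoprotein, was at 1.26, 1.13, 1.21, 0.905 and 2.97 CPM in untreated cells, 10.3, 9.95, 10.2, 10.7 and 11.1 at 7 days and 3.02, 2.89, 4.15, 2.58 and 3.22 in the knockdown (log2 fold change 1.73, 95% interval 1.35 to 2.11, edgeR adjusted p = 6.02e-08). PSG9 belongs to a family of near-identical genes, between which reads may be divided. VGF, a precursor of neuroendocrine peptides, was abundant throughout with 118, 144, 123, 143 and 137 CPM in untreated cells, 410, 408, 396, 433 and 415 at 7 days and 207, 250, 249, 254 and 272 in the knockdown (log2 fold change 0.76, 95% interval 0.59 to 0.92, edgeR adjusted p = 7.44e-08).

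**Figure D4:**
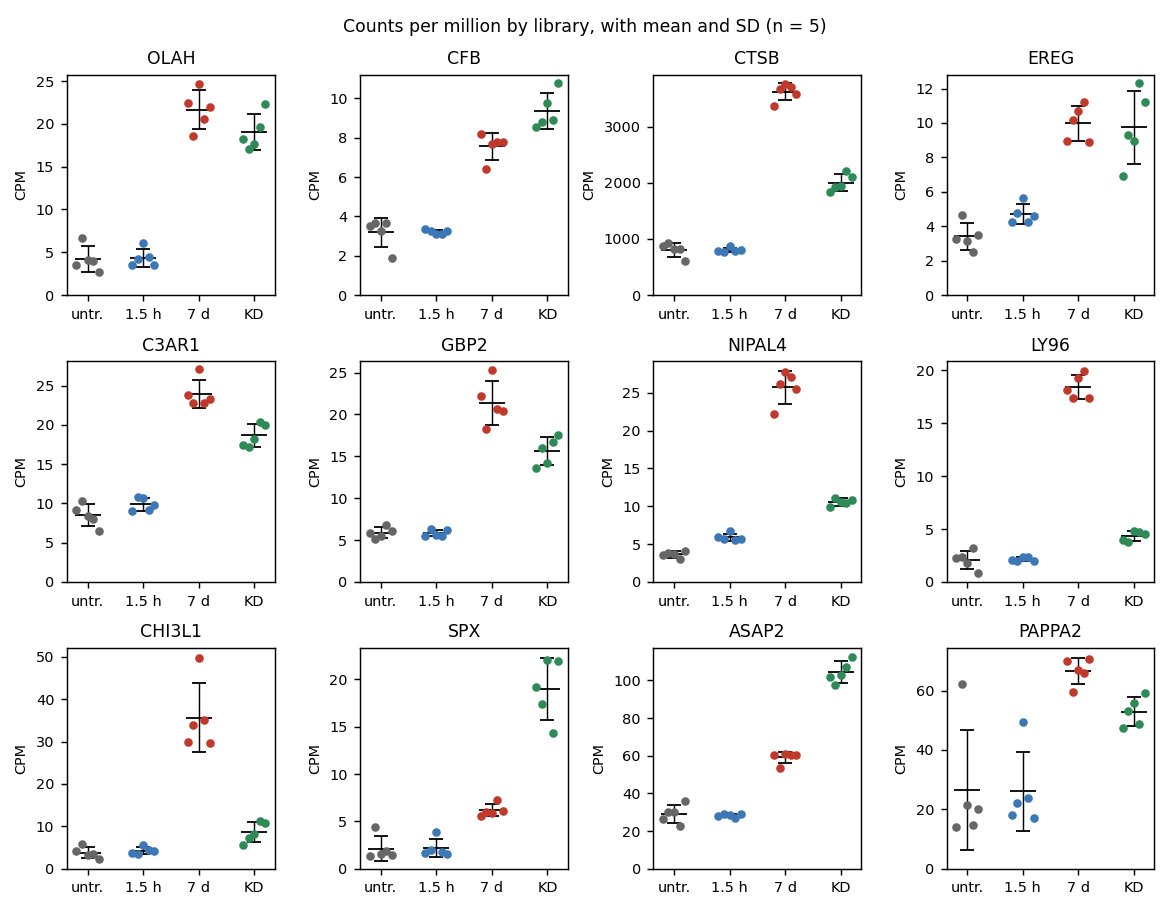
CPM of 12 of the 63 genes in each library (points), with mean and SD of the 5 libraries (bars), in untreated cells (untr.), at 1.5 h, at 7 days (7 d) and in the NFKBIA knockdown (KD). OLAH and EREG reach like levels at 7 days and in the knockdown, LY96 and CHI3L1 are highest at 7 days, and SPX and ASAP2 are highest in the knockdown.

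Lysosomal enzymes, proteases and enzymes of glycans accounted for 8 genes. CTSB, the lysosomal cysteine protease cathepsin B and a SASP factor, was the most abundant of all 63 per length as well as in CPM. It was at 877, 923, 813, 826 and 604 CPM in untreated cells, 782, 775, 874, 788 and 800 at 1.5 h. Levels were 3376, 3680, 3756, 3711 and 3578 CPM at 7 days and 1843, 1927, 1946, 2204 and 2104 in the knockdown. No groups overlapped except untreated cells and 1.5 h, and the level at 7 days was 1.82-fold that of the knockdown (log2 fold change 0.87, 95% interval 0.71 to 1.02, edgeR adjusted p = 2.70e-09). FUCA1, which removes fucose from glycoproteins in the lysosome, was at 39.4 ± 8.74 CPM in untreated cells, 131 ± 6.17 at 7 days and 76.1 ± 4.55 in the knockdown (SD, n = 5; log2 fold change 0.80, 95% interval 0.59 to 1.01). SIAE, a sialic acid esterase, was at 16.4 ± 2.37, 48.4 ± 3.16 and 34.4 ± 2.70 CPM, and its log2 fold change of 0.51 between the states was close enough to the limit that leaving out 11 of the 20 libraries in turn lost the call (0.46 to 0.50). CSTA, an inhibitor of cysteine proteases such as cathepsin B, tended the other way, with 1.73, 3.92, 1.91, 3.3 and 2.8 CPM in untreated cells, 9.68, 13, 11, 10.01 and 10.2 at 7 days and 14.4, 13.8, 13.7, 12.6 and 17.4 in the knockdown (log2 fold change -0.40, 95% interval -0.77 to -0.04, edgeR adjusted p = 0.0526). RENBP, the renin-binding protein with N-acylglucosamine epimerase activity, and CEMIP, which takes part in hyaluronan breakdown, were called higher at 7 days (0.61 and 0.59).

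The metalloproteinase genes ADAM28 and PAPPA2 were not called between the states. ADAM28 was at 3.49, 4.17, 3.0, 2.59 and 2.8 CPM in untreated cells, 11.7, 12.4, 12.8, 11.5 and 13.2 at 7 days and 7.44, 9.69, 9.03, 12 and 10.8 in the knockdown (log2 fold change 0.35, 95% interval 0.10 to 0.60). PAPPA2, which cleaves IGF-binding proteins, was at 13.9, 62.2, 21.5, 14.6 and 20.01 CPM in untreated cells, 18.1, 22.1, 49.5, 23.9 and 17 at 1.5 h. The raised groups were at 70.1, 59.4, 66.7, 65.9 and 70.5 CPM at 7 days and 47.4, 53.1, 55.8, 48.7 and 59.2 in the knockdown. Untreated replicate 2 thus reached the range of the raised groups, and the fitted interval between 7 days and knockdown was wide (log2 fold change 0.35, 95% interval -0.31 to 1.0).

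Among 7 genes of fuel, lipid and cofactor metabolism, OLAH had the largest smaller rise of all 63 genes. It encodes a thioesterase that releases medium-chain fatty acids from fatty acid synthase. OLAH was at 3.54, 6.71, 4.13, 3.98 and 2.66 CPM in untreated cells, 3.46, 4.25, 6.06, 4.48 and 3.51 at 1.5 h. Senescent libraries held 22.5, 18.5, 24.7, 20.6 and 22 CPM and knockdown libraries 18.3, 17.1, 17.6, 19.7 and 22.3, and the raised groups overlapped (log2 fold change 0.20, 95% interval -0.11 to 0.52). PDK4, the pyruvate dehydrogenase kinase that favours fatty acid use, was at 3.98, 3.98, 4.21, 3.13 and 4.04 CPM in untreated cells, 2.15, 3.07, 3.26, 1.78 and 2.53 at 1.5 h, 8.31, 7.03, 9.09, 8.41 and 8.06 at 7 days and 8.94, 8.15, 8.88, 10.4 and 10.05 in the knockdown (log2 fold change -0.17, 95% interval -0.41 to 0.08). Both raised groups overlapped again. HK2, a hexokinase of glycolysis, was called higher at 7 days with 66.3, 69.2, 68.4, 71.7 and 71.7 CPM against 32.9, 34.9, 39.1, 36.2 and 36.1 in the knockdown and 19.4, 29, 22.9, 18 and 16 in untreated cells (log2 fold change 0.97, 95% interval 0.74 to 1.19, edgeR adjusted p = 1.37e-07). DHRS3, a retinal reductase, FAXDC2 and NMNAT2, an enzyme of NAD synthesis, were also called higher at 7 days, with log2 fold changes of 0.76, 0.82 and 0.60. TMEM86A, a lysoplasmalogenase, was not called (log2 fold change 0.37, 95% interval 0.14 to 0.60).

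Of 6 axonemal dyneins and other motor or coiled-coil genes 5 were called higher at 7 days than in the knockdown (47.6% of the 63 and 15.8% of all genes tested). The median over these 6 was a log2 fold change of 1.09. Like the other groups by role, this one was put together with the values known, so its count and median are descriptions. CCDC148, a coiled-coil gene, had the largest difference of all 63 genes. It was at 3.05, 3.78, 2.62, 3.2 and 3.19 CPM in untreated cells, 36.1, 36.5, 37.4, 35.3 and 36.8 at 7 days and 6.04, 6.37, 6.56, 5.92 and 5.93 in the knockdown, 5.95-fold higher at 7 days (log2 fold change 2.57, 95% interval 2.42 to 2.73, edgeR adjusted p = 8.88e-17). DNAH11, a heavy chain of the outer dynein arm of motile cilia, was at 1.64, 1.96, 1.61, 1.26 and 1.64 CPM in untreated cells, 11.9, 11.5, 11.7, 13.1 and 12.8 at 7 days and 3.86, 3.26, 4.06, 4.23 and 3.72 in the knockdown (log2 fold change 1.69, 95% interval 1.5 to 1.88, edgeR adjusted p = 1.83e-12). DNAH7, an inner arm heavy chain, reached 5.47, 4.05, 5.36, 5.48 and 4.65 CPM at 7 days and 2.87, 3.44, 4.64, 5.02 and 4.19 in the knockdown from 1.32, 2.65, 1.88, 1.45 and 1.64 in untreated cells and was not called (log2 fold change 0.33, 95% interval -0.03 to 0.69). CFAP70, another axonemal protein, the myosin gene MYH15 and TXLNB were called higher at 7 days with log2 fold changes of 0.72, 1.45 and 0.65.

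Membrane proteins, many of them known from neurons, numbered 12, and 5 of these were called higher at 7 days than in the knockdown, where 47.6% of the 63 and 15.8% of all genes tested were. SYP, the synaptic vesicle protein synaptophysin, was at 6.24, 5.6, 6.76, 6.82 and 5.9 CPM in untreated cells, 39.2, 38.1, 37.2, 42.6 and 38.8 at 7 days and 12.7, 12.1, 12.2, 13.7 and 12.8 in the knockdown (log2 fold change 1.64, 95% interval 1.49 to 1.79, edgeR adjusted p = 5.15e-14). NIPAL4, a magnesium transporter of the epidermis, was the gene with the highest difference at 1.5 h, where all its libraries lay above the untreated ones. It was at 3.57, 3.84, 3.69, 2.97 and 4.08 CPM in untreated cells, 5.89, 5.68, 6.68, 5.53 and 5.67 at 1.5 h. Later values were 22.2, 26.1, 27.8, 27.1 and 25.6 CPM at 7 days and 9.89, 11.2, 10.5, 10.5 and 10.8 in the knockdown (log2 fold change 1.30, 95% interval 1.14 to 1.45, edgeR adjusted p = 4.18e-12). The channel genes CHRNA9 and KCNK3, and EFR3B, were called higher at 7 days with log2 fold changes of 0.86, 0.86 and 0.62. ADGRL4, an adhesion receptor of endothelium, was at 17.3, 18.3, 14.5, 17.1 and 14.8 CPM in untreated cells, 43.4, 41.5, 46.3, 43.7 and 42.3 at 7 days and 38.8, 37.5, 42.7, 47.3 and 47 in the knockdown, and had one of the narrowest intervals around no difference (log2 fold change 0.04, 95% interval -0.11 to 0.20). ANTXR2, a collagen-binding receptor also used by anthrax toxin, was at 34.3 ± 3.22 CPM in untreated cells, 111 ± 4.10 at 7 days and 89.0 ± 9.20 in the knockdown (SD, n = 5; log2 fold change 0.34, 95% interval 0.20 to 0.48). RUNDC3A was at 1.22 ± 0.196, 4.61 ± 0.593 and 3.65 ± 0.439 CPM (log2 fold change 0.34, 95% interval 0.12 to 0.57). BEGAIN, P2RX5, IGDCC4 and TMEM151A were not called, with log2 fold changes of 0.05, 0.27, 0.25 and -0.15.

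Of 5 intracellular signalling and scaffold genes, ASAP2 was the one higher in the knockdown. ASAP2, a GTPase-activating protein for Arf proteins, was at 26.6, 30.1, 29.96, 23 and 35.9 CPM in untreated cells, 60.4, 53.7, 60.7, 60.3 and 60.5 at 7 days and 102, 97.8, 103, 107 and 113 in the knockdown, 1.75-fold higher in the knockdown than at 7 days (log2 fold change -0.81, 95% interval -0.98 to -0.63, edgeR adjusted p = 5.08e-08). The 4 groups were separate except for untreated cells and 1.5 h. MAPK13, the p38δ kinase, was called higher at 7 days (log2 fold change 0.79, 95% interval 0.56 to 1.01, edgeR adjusted p = 2.46e-06). RAPGEF3, the cAMP-activated exchange factor EPAC1, and the engulfment adaptor GULP1 were not called (0.16 and 0.13). ANK2, an ankyrin, was at 10.3, 42.4, 14.1, 8.01 and 17.2 CPM in untreated cells, 26.2, 23.2, 26.4, 24.3 and 25.9 at 7 days and 22.5, 26, 27.3, 27 and 29.4 in the knockdown, so that untreated replicate 2 exceeded every raised library (log2 fold change -0.06, 95% interval -0.74 to 0.62).

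The families around these genes were followed with 9 gene lists drawn up by function, and 17 of the 63 genes were in at least one of them. Calls are against untreated cells by the same edgeR rule, and the comparisons share the untreated libraries, so that they are given side by side and not set against each other. Members of the 63 count among the higher genes by the choice of the rule, and the counts without them are given as well. Of all genes tested 16.7% were called higher and 14.4% lower at 7 days, and 5.18% higher and 7.53% lower in the knockdown. Complement and its regulators had 15 of 26 genes higher and 1 lower at 7 days (median log2 fold change 0.80) and 12 higher and 3 lower in the knockdown (median 0.49). Outside the 63, 10 and 7 of 21 were higher, among them CFI, the protease that cleaves C3b, with means of 1.02, 9.04 and 5.03 CPM in untreated cells, at 7 days and in the knockdown. C7 was higher at 7 days and lower in the knockdown (0.783, 3.59 and 0.251 CPM). Interferon-stimulated genes had 20 of 36 higher and 2 lower at 7 days, and 11 higher and 0 lower in the knockdown, or 16 and 7 higher of 32 outside the 63. OASL was higher in the knockdown alone (6.36, 6.69 and 14.8 CPM). Lysosomal genes had 42 of 71 higher and 2 lower at 7 days, and 14 higher and 0 lower in the knockdown (39 and 11 higher of 68 outside the 63). Axonemal and ciliary genes had 33 of 40 higher and 0 lower at 7 days, and 22 higher and 1 lower in the knockdown, the latter being CFAP58 (20.2, 102 and 8.18 CPM). Outside the 63 the higher genes numbered 30 and 19 of 37. Genes of fatty acid use had 10 of 24 higher and 1 lower at 7 days, and 6 higher and 1 lower in the knockdown (9 and 5 higher of 23 outside the 63).

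The remaining 4 lists held at most 2 of the 63 genes each. The published SASP factors, of which EREG and CTSB belong to the 63, had 23 of 39 higher and 2 lower at 7 days, and 9 higher and 6 lower in the knockdown (21 and 7 higher of 37 outside the 63). IL1A was higher in both (0.489, 9.80 and 2.23 CPM in untreated cells, at 7 days and in the knockdown) but began below 1 CPM, and MMP13 was lower at 7 days and higher in the knockdown (7.28, 3.20 and 48.9 CPM). NF-κB feedback genes and subunits held none of the 63, with 9 of 23 higher and 0 lower at 7 days but 0 higher and 5 lower in the knockdown. These 5 were BIRC3, RELB, TNFAIP3, ICAM1 and NFKBIA. The last is the gene targeted by the shRNA, so its lower call was set by the experiment. At an unadjusted p under 0.05, regardless of fold, 1 of the 23 were higher in the knockdown, and DESeq2 called 0 higher. The p53 targets held none of the 63 either, with 24 of 25 higher at 7 days and 3 in the knockdown. This absence is in part set by the rule. The p53 targets GADD45A and GDF15 passed both limits on the rises and were removed only by the limit at 1.5 h. Where these lists had 0 lower calls, the numbers lower at an unadjusted p under 0.05 were 4 for NF-κB feedback, 1 for axonemal genes and 0 for p53 targets at 7 days, and 1 for interferon-stimulated genes, 4 for lysosomal genes and 3 for p53 targets in the knockdown, and DESeq2 called 0 lower in each. Proliferation genes had 27 of 30 lower at 7 days and 8 lower in the knockdown. At an unadjusted edgeR p under 0.05, regardless of fold, 29 and 30 of the 30 were lower. Their median log2 fold changes were -1.11 at 7 days and -0.37 in the knockdown, so most fell short of the fold limit there.

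**Figure D5:**
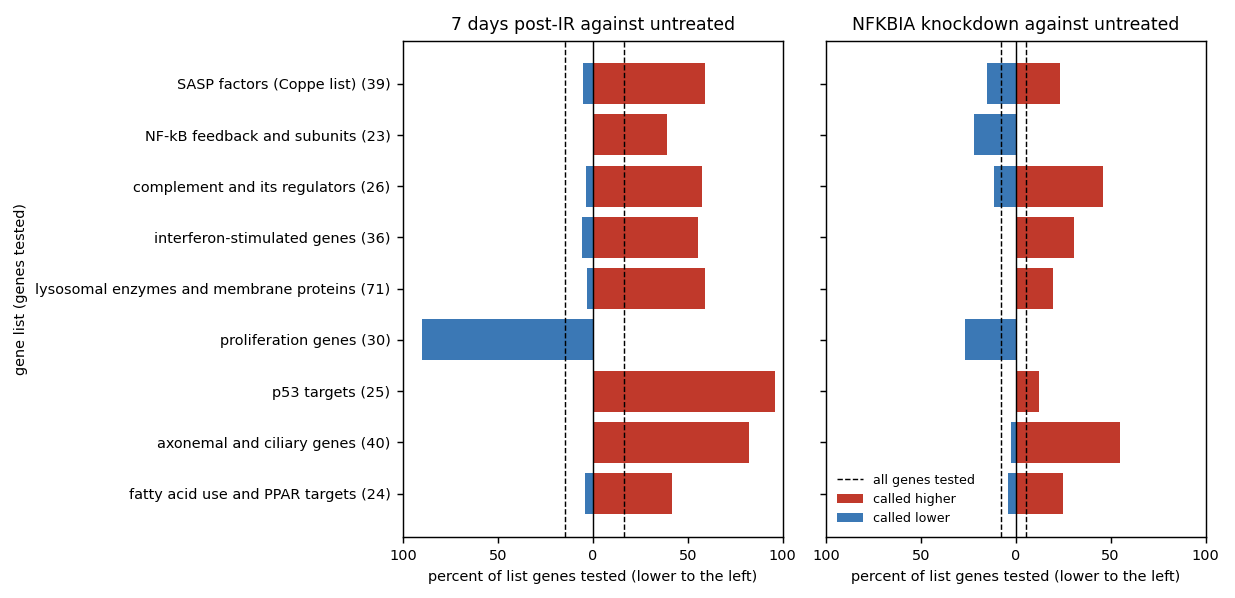
Percent of the tested genes of each list (rows, number tested in brackets) called higher (red, to the right) or lower (blue, to the left) than in untreated cells at 7 days post-IR (left panel) and in the NFKBIA knockdown (right panel). Dashed lines give the percent of all 14992 genes tested. Complement and axonemal genes extend furthest to the right in the knockdown, and the NF-κB feedback list has 0 genes higher there.

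All 63 genes are protein coding in GENCODE 29 and lie on 17 chromosomes, with at most 9 on one. Within 1000000 bases of each other lay 6 pairs, among them IFI44 and ADGRL4, IFIT2 and IFIT3, and the overlapping C2, CFB and ENSG00000244255. Exons of another gene on the opposite strand overlapped 21 of the genes and on the same strand 11. The counter and its strand setting are not given in the sources used here, so that counts of these genes can include reads of their neighbours.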

How the data were processed

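Messenger RNA of 20 U2-OS libraries was sequenced from stranded libraries. The deposited table holds whole-number counts per gene made by the authors. The submitters' processing notes name bcl2fastq, Trimmomatic, STAR 2.4.2a and the build hg19, while the counter, its annotation and its strand setting are not given in the sources used here. Libraries held 22535659 to 40390961 counts, and the lower of 2 libraries gives the less precise value for weak genes. The study describes the libraries of untreated and irradiated cells as biological replicates, and p-values measure the spread between the libraries. In the sources used here the sequenced knockdown libraries are not so described, and whether they come from separate clones is not stated. If they come from the same clone, p-values that involve them measure the spread within that clone.

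CPM was computed as count divided by library total. Counts were fitted with edgeR 4.0.16 (R 4.3.3, limma 3.58.1) by the quasi-likelihood test over all 20 libraries with TMM factors (0.933 to 1.02), after filterByExpr with a minimum count of 10, which kept 14992 of 20314 genes. P-values were adjusted by Benjamini-Hochberg, and a gene was called at an adjusted p under 0.05 and a log2 fold change above 0.5 in size. DESeq2 1.42.0 was an alternative. On simulated data for 7 days against knockdown with 14861 genes, 90 of 97 genes with a log2 fold change of 1 and 97 of 99 with 2 were recovered. Other scalings, filters, lanes, a replicate block, other settings of the rule and leaving out each library were tried. Leaving out libraries for the gene lists was added after seeing the data. The 63 genes, gene lists and roles were chosen with earlier results of these data known. Genes are named for the size of the smaller rise, the difference between 7 days and knockdown, membership in a list or a place next to a limit, and the others are named by role. Gene positions are from GENCODE 29, and promoters and their coordinates from RefSeq on GRCh38.p14, so neither is on the build of the counts and no coordinate was converted. Values of 2 of the 63 genes are not reported here, although both are in all counts and medians over the 63. Figures were drawn with matplotlib 3.10.9.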

Additional observations from a re-analysis of the deposited data

Results flagged for a closer look

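Single libraries stood apart from the other 4 of their group by Dixon's criterion in 26 of 268 sets of values, where 13.4 would be expected by chance at 1 in 20. They concerned 19 of the 63 genes. Untreated replicate 2 was the highest of its group for PAPPA2 (62.2 CPM, others 13.9 to 21.5), ANK2 (42.4, others 8.01 to 17.2), SPX (4.39, others 1.38 to 1.91) and KLRC4-KLRK1 (1.60, others 0.966 to 1.10). Replicate 3 at 1.5 h was the highest for PAPPA2 (49.5 CPM, others 17.0 to 23.9), ANK2 (29.98, others 9.96 to 13.6), SPX (3.90, others 1.60 to 2.01) and CTSB (874, others 775 to 800).

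Untreated replicate 5 was the lowest of its group for RENBP (0.843 CPM, others 2.28 to 2.52), CFB (1.91, others 3.27 to 3.68), PROS1 (25.6, others 37.2 to 41.8), P2RX5 (2.48, others 4.16 to 4.31) and FUCA1 (24.3, others 40.2 to 46.1), and the highest for PSG9 (2.97, others 0.905 to 1.26). It also had the lowest TMM factor (0.933) and the lowest median log2 CPM of expressed genes (5.06) of the untreated libraries. Untreated replicate 4 was the lowest for PDK4 (3.13 CPM, others 3.98 to 4.21).

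In the other groups, replicate 1 at 1.5 h had the highest total (39546228 counts) and the lowest DNAH11 (1.34 CPM, others 1.72 to 1.85). At 7 days replicate 3 was the highest for CHI3L1 (49.6 CPM, others 29.6 to 35.2) and C3AR1 (27.1, others 22.8 to 23.8), replicate 2 the lowest for ASAP2 (53.7, others 60.3 to 60.7), and replicate 1 the lowest for CD22 (5.76, others 7.91 to 8.54) and in its TMM factor (1.0004). In the knockdown replicate 2 was the lowest for RAET1E (3.94 CPM, others 4.99 to 5.28) and replicate 5 the highest for MARCO (15.9, others 13.9 to 14.4).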

How the results depend on the processing

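Numbers of genes found by the rule depended on its settings. CPM scaled by TMM factors gave 52 genes and by RLE factors, another scaling, 54, all of them among the 63. Means in place of medians gave 65 (53 of the 63). An added constant of 0.1 gave 81 (61 of the 63) and one of 2 gave 34. An untreated CPM of at least 5 gave 25, and limits of 0.6 and 1.0 on the rises gave 166 and 33. Untreated replicate 5 alone as the untreated group gave 215 (42 of the 63). Leaving out each library gave 61 to 71, and 47 of the 63 genes were found every time. Between 7 days and knockdown, the median log2 fold change over the 63 genes was 0.68 with the lane as a factor and 0.67 in lane 5 alone (0.38 to 0.50 without each library). With no limit on the fold 4456 genes were higher and 4153 lower, and 42 of the 63 were higher and 6 lower. The lists held 36 genes lower in the knockdown with the lane as a factor, against 23. Signs turned for ANK2 and PDCD1 with the lane as a factor (0.19, 0.13) and in lane 5 alone (0.18, 0.12), for EREG and BEGAIN without 7 days replicate 4 (-0.01 each) or knockdown replicate 1 (-0.066 and -0.011), and for ADGRL4 without knockdown replicate 1 (-0.008) or 2 (-0.019). Over all single libraries left out BEGAIN reached 0.089 and ADGRL4 0.062. None of these sign changes was called in any of those fits. The cause was not tested. SIAE lost its call with upper-quartile factors (0.50), library size alone (0.49) and no filter (0.49). Without each library 29 to 31 of the 63 were higher and 3 lower. With a replicate block 2371 genes were higher and 1486 lower, and 30 and 3 of the 63, with a median of 0.47, and the lists held 174, 34, 77 and 21 calls. Libraries with the same number did not deviate together (r -0.04 to 0.01). DESeq2 gave 30 and 3 of the 63. Weak genes limit precision, as 38 of the 63 had an untreated median below 5 CPM.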

Other observations

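Untreated replicate 2 and replicate 3 at 1.5 h were each compared with the median of the other libraries of their group, after 0.5 was added to both CPM values. Both ratios were at least 1.5 in 6 of the 63 genes (9.52%), namely PAPPA2, CSTA, SPX, ANK2, DHRS3 and CHRNA9. The same held for 61 of 13367 expressed genes (0.456%). Among the genes outside the 63 with this pattern, chosen here after their values were seen, were INHBE, an inhibin subunit, and ASNS, asparagine synthetase. INHBE was at 9.97 CPM in untreated replicate 2 (others 0.264 to 1.97), 5.64 in 1.5 h replicate 3 (others 0.224 to 1.83), 3.45 to 6.93 in the knockdown and 0.614 to 1.33 at 7 days. ASNS was at 391 CPM in untreated replicate 2 (others 61.0 to 147), 347 in 1.5 h replicate 3 (others 78.1 to 155), 162 to 204 in the knockdown and 67.2 to 70.3 at 7 days. The origin of the pattern was not tested.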
